A study of Mus musculus with 8 samples.

Results

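The Hox genes are the homeobox genes of 4 chromosomal clusters, HoxA to HoxD, and each is named by its cluster letter and by a paralogue number that counts from the 3′ end of the cluster. They were taken from the deposited tables as every gene symbol made of Hox, a letter from a to d and a number, which gave 39 genes of 21882 and 41 RefSeq transcripts of 27641. HoxA had 11 members within chr6:52105366-52210874, HoxB 10 within chr11:96055675-96229567, HoxC 9 within chr15:102751562-102867283 and HoxD 9 within chr2:74506367-74603199, all in mouse build mm9. The values are FPKM, fragments counted on a transcript divided by its length and by the depth of the library, and the values of a gene's transcripts were added up. Only Hoxa10 and Hoxb3 had more than 1 transcript.

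The RNA came from skin of C57BL/6 mouse embryos in 8 libraries. At embryonic day 16.5 (E16.5), 2 libraries of skin labelled Cyp26b1-/-, a null genotype in every cell, were set against 2 libraries of wild-type skin. At embryonic day 18.5 (E18.5), 1 library labelled En1cre;Cyp26b1f/- was set against 1 library labelled Cyp26b1f/+ in dermis, and likewise in epidermis. En1cre recombines the floxed allele in cells that have expressed Engrailed 1, and the mutant also carries 1 null allele in all its cells where the control carries a wild-type one. The labels give no body site for any library, and the E16.5 columns hold 1 value for each group, so no spread between libraries can be read. The 3 tables share no libraries and were normalised separately. Groups are called below by their labels.

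Cyp26b1 encodes an enzyme that breaks down retinoic acid. Retinoic acid binds nuclear receptors that sit on DNA as pairs, on direct repeats of a hexamer, and in the vertebrate embryo it switches on Hox genes of the 3′ end of the clusters before those of the 5′ end. Hox proteins are transcription factors that record position along the body axis: low numbers are expressed from the hindbrain on, middle numbers in the thorax, and high numbers in the caudal trunk and the distal limb. Skin fibroblasts keep such a positional Hox pattern, and Hoxc13 has a further role in hair and nail formation.

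None of the libraries labelled mutant had a lower level of Cyp26b1 itself. Its FPKM was 58.16 in Cyp26b1-/- skin and 34.95 in wild-type skin, 101.73 in En1cre;Cyp26b1f/- dermis and 54.16 in Cyp26b1f/+ dermis, and 13.68 in En1cre;Cyp26b1f/- epidermis and 4.97 in Cyp26b1f/+ epidermis. The tables give 1 value for a whole transcript, so the deleted part cannot be read apart from the rest and these values do not check the labels. The libraries differed in markers of other tissues too, before any Hox gene is considered. All 11 lens markers rose in Cyp26b1-/- skin by the test described below, with a summed level of 2335 FPKM in Cyp26b1-/- skin and 10.34 FPKM in wild-type skin. In dermis the keratinocyte markers summed to 4442.95 FPKM in the En1cre;Cyp26b1f/- library and 14551.2 FPKM in the Cyp26b1f/+ library. Both are taken up again beside the Hox values.

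The sequences below are some of the direct repeats with a spacing of 5 bases found in and around the clusters, not a full list, shown because such a repeat next to Hoxb1 is a known retinoic acid response element in the mouse. Each cluster with 20 kb on either side was searched on both strands of mm9 for a pair drawn from the hexamer AGGTCA, the form AGTTCA, the form GGGTCA and the form GGTTCA. Capitals mark the hexamers, and each is printed 5′ to 3′ on the strand named.
HoxA, chr6:52125532-52125548, minus strand, inside Hoxa3 but in no exon: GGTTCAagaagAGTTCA
HoxB, chr11:96073343-96073359, minus strand, 14.582 kb beyond the 3′ end of Hoxb13: AGGTCAgggaaGGGTCA
HoxB, chr11:96202550-96202566, plus strand, in an intron of Hoxb3: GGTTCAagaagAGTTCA
HoxB, chr11:96234090-96234106, plus strand, 4.52 kb beyond the 3′ end of Hoxb1: GGTTCAtagagAGTTCA
HoxD, chr2:74579597-74579613, plus strand, in an intron of Hoxd3: GGTTCAagcagAGTTCA
The repeat in Hoxa3 and the repeat in Hoxb3 had the same letters. HoxC had 0 such repeats in its window of 155.722 kb. Chromosome 15 as a whole held 0.362 of them per 100 kb, so a count of 0 does not set HoxC apart. A repeat with a spacing of 1 base lay in the HoxC window, 12.549 kb beyond the 3′ end of Hoxc4. These matches describe letters only.

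Promoters of 22 Hox genes, 24 promoters in all, were matched in RefSeq (build GRCm38.p6, 250 bases before to 50 after the start). None of the 24 held a direct repeat of these hexamers with a spacing of 1, 2 or 5 bases, against 0.222%, 0.268% and 0.0974% of the 32851 promoters in the table. With shares this low, finding none among 24 does not set the Hox promoters apart. A single hexamer was present in 45.8% of the Hox promoters and in 43.7% of all promoters. The Hoxc4 promoter (chr15:103034145-103034444, plus strand, GRCm38.p6) is shown because Hoxc4 was among the HoxC genes called higher below. Capitals mark its 2 hexamers, both of which read as AGTTCA or AGGTCA on the minus strand.
Hoxc4 promoter: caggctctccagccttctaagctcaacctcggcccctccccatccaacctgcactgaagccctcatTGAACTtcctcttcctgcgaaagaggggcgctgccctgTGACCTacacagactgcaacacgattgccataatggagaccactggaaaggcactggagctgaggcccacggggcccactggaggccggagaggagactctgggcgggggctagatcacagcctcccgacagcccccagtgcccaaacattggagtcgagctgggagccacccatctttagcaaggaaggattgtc

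The skin Hox repertoire held genes from paralogue 1 to 10 and Hoxc13. Of the 39 genes, 30 reached 1 FPKM in at least 1 of the 6 columns. The other 9, Hoxa11, Hoxa13, Hoxb1, Hoxb13, Hoxc11, Hoxc12, Hoxd11, Hoxd12 and Hoxd13, stayed at or below 0.56 FPKM in every column. They include most of the genes that pattern the distal limb and the genital region. At least 1 FPKM was reached by 25 genes in Cyp26b1-/- skin and 23 in wild-type skin, by 29 in both dermis libraries and by 21 in both epidermis libraries. Beyond paralogue 8, Hoxc13 in Cyp26b1f/+ epidermis was the only gene at 1 FPKM or more in either epidermis library.

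**Figure D1:**
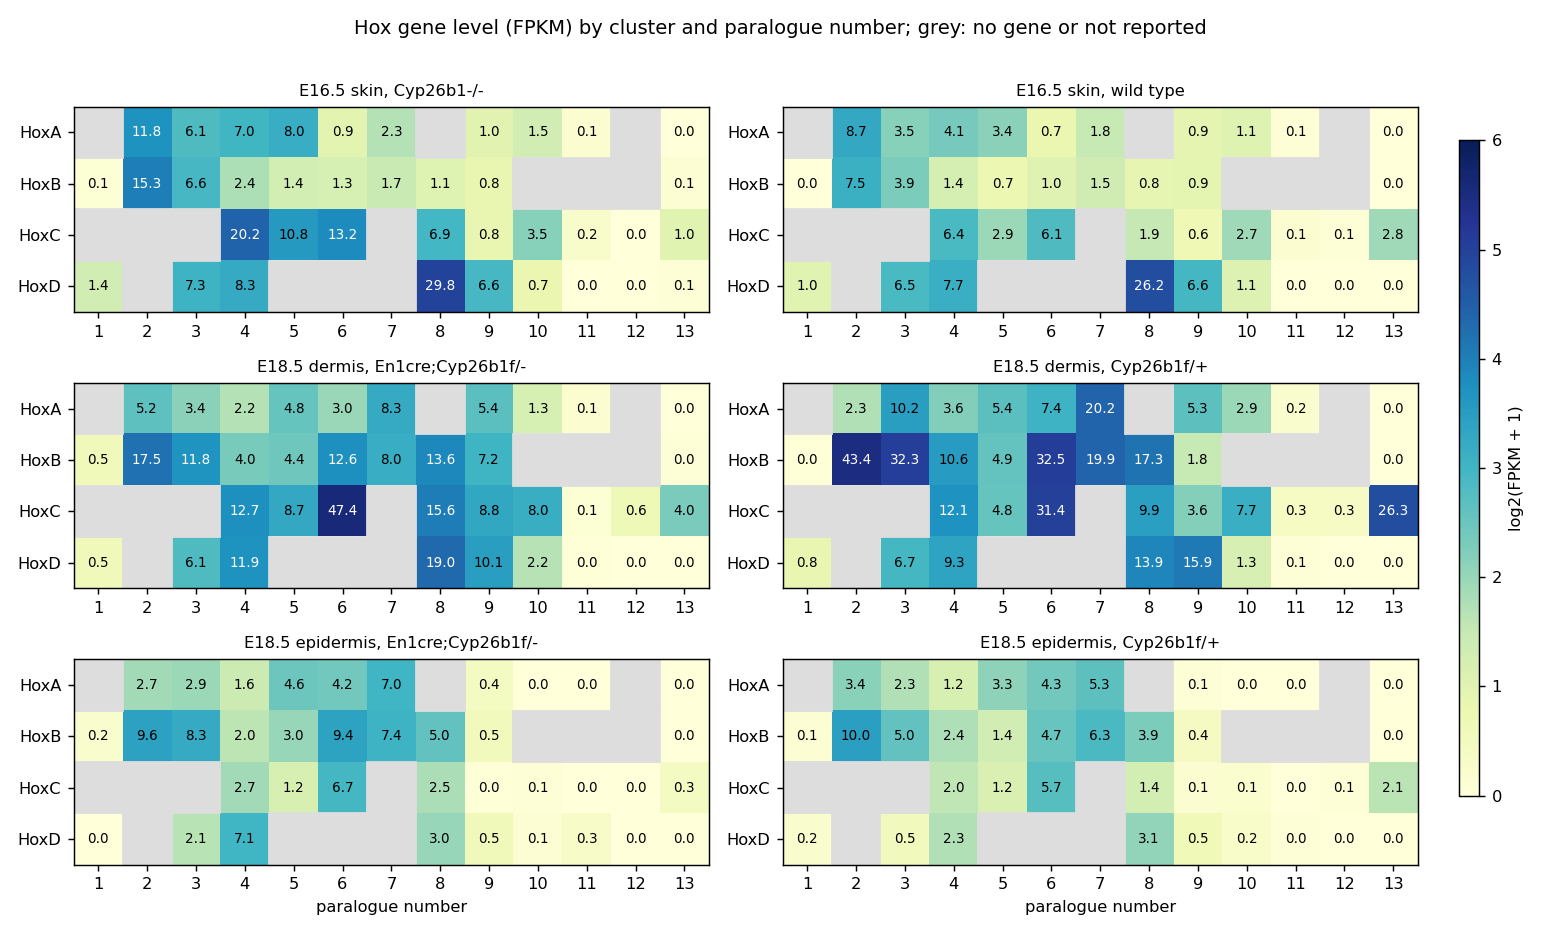
Level of Hox genes in FPKM in the 6 deposited columns, with clusters as rows and paralogue numbers as columns of each panel. Numbers are FPKM, colour is log2(FPKM + 1), grey marks a number that the cluster lacks or whose gene is not reported here, and mutant panels are on the left. Hoxd8 leads in E16.5 skin (29.82 in Cyp26b1-/- and 26.22 in wild type), and the E18.5 epidermis panels are near 0 beyond paralogue 8 in both libraries except for Hoxc13.

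The gene with the highest level differed between the tables. In E16.5 skin it was Hoxd8, a central HoxD gene, with 29.82 FPKM in Cyp26b1-/- skin and 26.22 FPKM in wild-type skin. In dermis it was Hoxc6, with 47.42 FPKM, in the En1cre;Cyp26b1f/- library and Hoxb2, with 43.44 FPKM, in the Cyp26b1f/+ library. Hoxb2 led in epidermis, with 9.64 FPKM in En1cre;Cyp26b1f/- and 10 FPKM in Cyp26b1f/+. Summed over all 39 genes, Hox FPKM came to 184.61 in Cyp26b1-/- and 117.35 in wild-type skin, to 270.61 in En1cre;Cyp26b1f/- and 366.53 in Cyp26b1f/+ dermis, and to 97.13 in En1cre;Cyp26b1f/- and 76.37 in Cyp26b1f/+ epidermis. The tables were normalised separately, so these sums are compared only within a table.

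At E16.5 Hoxc4, Hoxc5 and Hoxc8, central HoxC genes, were the Hox genes furthest above the rest in Cyp26b1-/- skin, and Hoxc13, at the other end of the same cluster, was the furthest below. Transcripts were called with the deposited test statistic after subtraction of the median deposited log2 fold of 0.47, at a Benjamini-Hochberg adjusted p of 0.05 over all tested transcripts. Of 30 Hox genes tested, 6 (20%) were called higher in Cyp26b1-/- skin, where 8.19% of 16303 genes were, and 1 (3.33%) was called lower, where 9.78% were. With the authors' deposited q-values and no centring, 13 Hox genes were called higher, where 54.6% of all genes were, and 1 lower, where 3.46% were. The part of the lens signal in these calls was not tested. The error of each fold is the one implied by the authors' test, not a spread between animals. Folds given below as relative are log2 values minus that median. Genes said to have risen or fallen at E16.5 were called on such folds. A gene called lower can therefore have a higher FPKM in Cyp26b1-/- skin.

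Hoxc4, Hoxc5, Hoxc6 and Hoxc8, adjacent genes that mark cervical and thoracic levels, all rose. Hoxc5 (chr15:102844439-102847860) had 10.85 FPKM in Cyp26b1-/- skin and 2.87 FPKM in wild-type skin, a relative log2 fold of 1.45 with an implied SE of 0.21. Hoxc8 (chr15:102820970-102824685) had 6.86 FPKM in Cyp26b1-/- skin and 1.86 FPKM in wild-type skin, a relative fold of 1.41 with an SE of 0.27. Hoxc4 (chr15:102864826-102867283) had 20.23 FPKM in Cyp26b1-/- skin and 6.39 FPKM in wild-type skin, a relative fold of 1.19 with an SE of 0.19. Hoxc6, which lies between Hoxc5 and Hoxc8, had the smallest fold of the 4. It had 13.19 FPKM in Cyp26b1-/- skin and 6.14 FPKM in wild-type skin (chr15:102839993-102842312), a relative fold of 0.63 with an SE of 0.22. The 4 genes together summed to 51.13 FPKM in Cyp26b1-/- skin and 17.26 FPKM in wild-type skin.

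The next genes toward the 5′ end, Hoxc9 and Hoxc10, did not pass the test. Hoxc9 had 0.80 FPKM in Cyp26b1-/- skin and 0.60 FPKM in wild-type skin, and Hoxc10 had 3.48 FPKM in Cyp26b1-/- skin and 2.74 FPKM in wild-type skin. Their relative folds were -0.07 (SE 0.49) for Hoxc9 and -0.13 (SE 0.31) for Hoxc10. Hoxc13 (chr15:102751562-102759245) fell, with 1.00 FPKM in Cyp26b1-/- skin and 2.77 FPKM in wild-type skin, a relative fold of -1.95 with an SE of 0.33. Hoxc11 and Hoxc12 were too low to be tested.

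**Figure D2:**
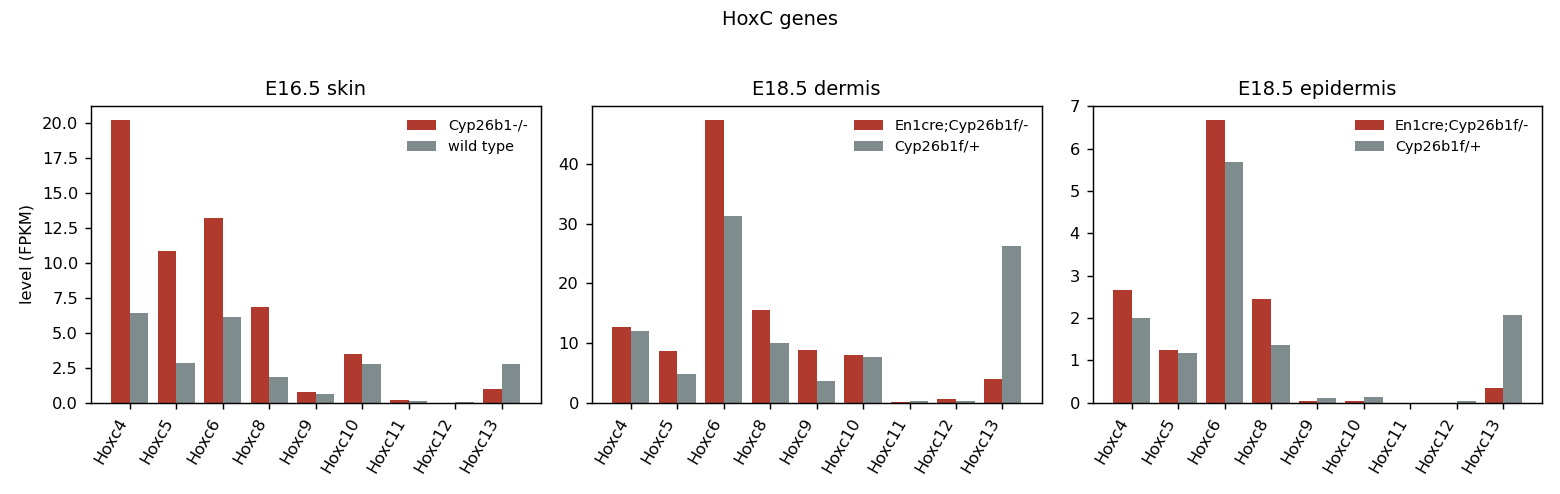
Level in FPKM of the 9 HoxC genes in 3' to 5' order along the cluster, for E16.5 skin, E18.5 dermis and E18.5 epidermis, with the mutant bar left of its control. Bars are single deposited values with no error, and each panel has its own scale: in E16.5 skin Hoxc4 stands at 20.23 in Cyp26b1-/- and 6.39 in wild type, and Hoxc13 is lower in the mutant in all 3 panels.

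Outside HoxC, the genes that rose were Hoxa5 and Hoxb2. Hoxa5, a gene of the neck and upper thorax, had 7.98 FPKM in Cyp26b1-/- skin and 3.38 FPKM in wild-type skin, a relative fold of 0.77 with an SE of 0.25. Hoxb2 (chr11:96212946-96215328), a hindbrain segment gene, had 15.34 FPKM in Cyp26b1-/- skin and 7.54 FPKM in wild-type skin, a relative fold of 0.55 with an SE of 0.20. Hoxd10 came nearest to a call on the lower side but did not pass, with 0.72 FPKM in Cyp26b1-/- skin and 1.12 FPKM in wild-type skin (relative fold -1.11, SE 0.43). In the deposited table Hoxa3, Hoxa4, Hoxa5 and Hoxa6 share 1 locus entry, chr6:52119061-52163596, with an overlapping noncoding gene, and no source used here says how reads over overlapping genes were shared out.

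Taken by cluster, the members that passed 1 FPKM in either group differed in their medians. Here and below, a relative difference is log2 of (mutant + 1)/(control + 1) FPKM minus its median over all genes of at least 1 FPKM, which was 0.43 in E16.5 skin over 14529 genes, 0.12 in dermis over 13493 and -0.18 in epidermis over 11452. The added 1 understates the change of low genes. In E16.5 skin it pulls them toward -0.43, the value of a gene at 0 in both groups. Without centring, 23 of the 26 Hox genes of at least 1 FPKM were above 0 in E16.5 skin, 12 of 29 in dermis and 15 of 22 in epidermis. In E16.5 skin the median relative difference was 0.15 over 7 HoxA genes, 0.07 over 7 HoxB genes, 0.80 over 6 HoxC genes and -0.31 over 6 HoxD genes. Every HoxD gene of at least 1 FPKM lay below the median gene, between -0.73 and -0.15, but 4 of the 6 lay above 0 without centring. None of them passed the test or the authors' deposited q. Hoxd4, Hoxd9 and Hoxd10, 3 of the 6 tested, had an unadjusted p under 0.05 in the re-centred Cuffdiff test. The share of all genes under that unadjusted p was not computed, so nothing is concluded from this count. The most abundant HoxD gene, Hoxd8, had 29.82 FPKM in Cyp26b1-/- skin and 26.22 FPKM in wild-type skin (relative difference -0.25). Hoxd4 had 8.26 FPKM in Cyp26b1-/- skin and 7.72 FPKM in wild-type skin (-0.34), and Hoxd1 and Hoxd3 stood at -0.15 and -0.27. By the relative fold, which has no added 1, Hoxd1 stood at 0.04. Hoxa6, Hoxa9 and Hoxb9 stayed under 1 FPKM in both E16.5 groups.

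Low paralogue numbers tended to lie above high ones in E16.5 skin. Over the 26 genes of at least 1 FPKM, Spearman's rho between paralogue number and relative difference was -0.46. Within clusters rho was -0.32 over 7 HoxA genes, -0.96 over 7 HoxB genes, -0.89 over 6 HoxC genes and -0.83 over 6 HoxD genes. In HoxB the order ran from Hoxb2 (0.51), Hoxb3 (0.21), Hoxb4 (0.09) and Hoxb5 (0.07) to Hoxb6 (-0.25), Hoxb8 (-0.27) and Hoxb7 (-0.32). This order depends in part on the added 1. With 0.1 in its place, Hoxb5 (0.43) lay above Hoxb4 (0.30) and Hoxb3 (0.28). The correlations were computed with the added 1 only. In HoxA, Hoxa2 (-0.02), Hoxa3 (0.23) and Hoxa4 (0.21) lay close together below Hoxa5 (0.61), while Hoxa7 (-0.21) and Hoxa10 (-0.17) lay lower. All 5 posterior genes (paralogues 9 to 13) of at least 1 FPKM lay below the median gene, though without centring Hoxa10 and Hoxc10, 2 of the 5, lay above 0. Hoxd9 stood at -0.44 with 6.58 FPKM in Cyp26b1-/- skin and 6.64 FPKM in wild-type skin. Neighbouring genes share a locus and all come from the same libraries, so these correlations are descriptions without a test.

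**Figure D3:**
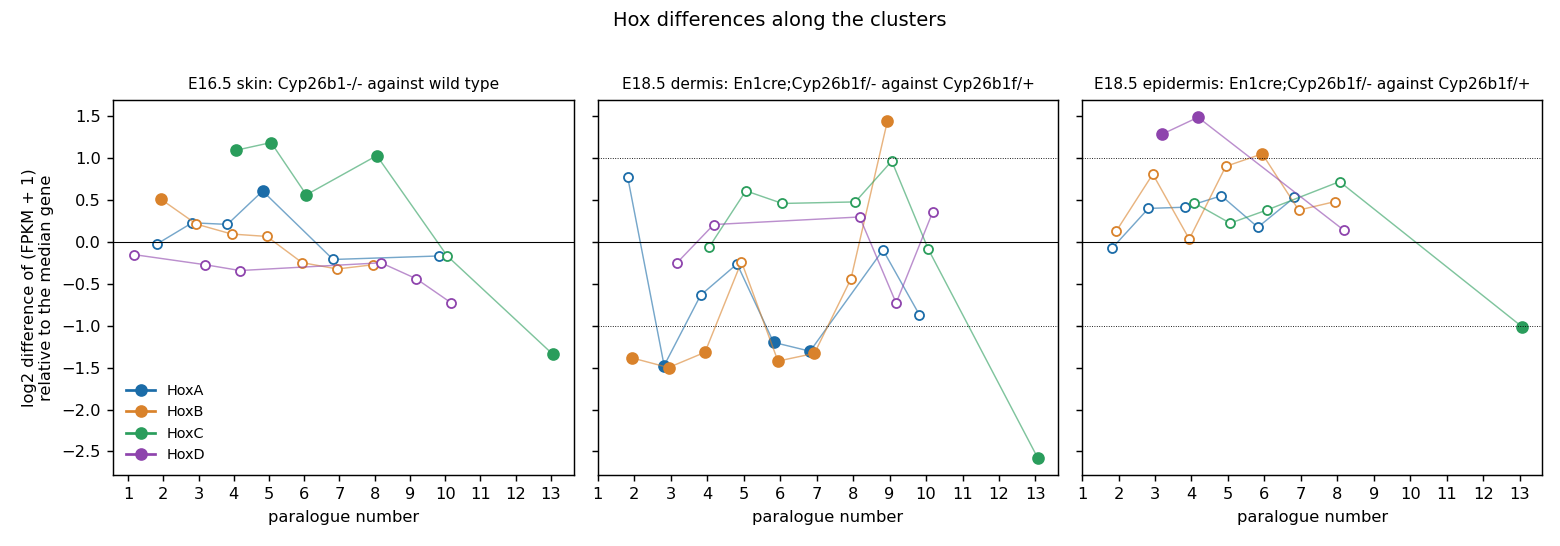
Relative log2 difference (vertical axis) of the reported Hox genes of at least 1 FPKM against their paralogue number (horizontal axis), one colour per cluster, in E16.5 skin, E18.5 dermis and E18.5 epidermis. Filled points are genes called in E16.5 skin, or at least 2-fold from the median gene (dotted lines) at E18.5, where nothing was tested. The HoxC line runs highest in E16.5 skin up to paralogue 8, in dermis Hoxc13 stands lowest at -2.58 and 5 HoxB genes lie below -1 while Hoxb9 stands highest at 1.44, and the points for Hoxd3 and Hoxd4 stand highest in epidermis.

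In E18.5 dermis 5 of 8 HoxB genes, Hoxa3, Hoxa6, Hoxa7 and Hoxc13 were lower in the En1cre;Cyp26b1f/- library, Hoxb9 was higher, and Hoxc4 to Hoxc8 were near or above the control. Each group is 1 library, so the values below have no replicate check and no test, and genes are counted by a relative difference of at least 2-fold. Of 29 members of at least 1 FPKM, 9 (31.0%) were 2-fold lower, where 13.9% of 13493 genes were, and 1 (3.45%) was 2-fold higher, where 14.1% were. The median relative difference was -1.32 over 8 HoxB genes, -0.64 over 9 HoxA genes, 0.46 over 7 HoxC genes and 0.21 over 5 HoxD genes.

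The 5 lower HoxB genes were spread along the cluster. Hoxb2 had 17.51 FPKM in En1cre;Cyp26b1f/- dermis and 43.44 FPKM in Cyp26b1f/+ dermis (relative difference -1.38). Hoxb3, the next gene, had 11.81 FPKM in En1cre;Cyp26b1f/- dermis and 32.31 FPKM in Cyp26b1f/+ dermis (-1.50). Hoxb6, a thoracic gene, had 12.61 FPKM in En1cre;Cyp26b1f/- dermis and 32.54 FPKM in Cyp26b1f/+ dermis (-1.42). Hoxb4 and Hoxb7 stood at -1.32 and -1.33. Between them Hoxb5 was near the median gene, with 4.44 FPKM in En1cre;Cyp26b1f/- dermis and 4.89 FPKM in Cyp26b1f/+ dermis (-0.24), and Hoxb8 had 13.64 FPKM in En1cre;Cyp26b1f/- dermis and 17.29 FPKM in Cyp26b1f/+ dermis (-0.44). The 5′ neighbour Hoxb9 was the 1 member 2-fold higher, with 7.24 FPKM in En1cre;Cyp26b1f/- dermis and 1.79 FPKM in Cyp26b1f/+ dermis (1.44). Spearman's rho with paralogue number was 0.62 over the 8 HoxB genes, a description as above. Exons of Hoxb7 and Hoxb8 overlap on the same strand in the GENCODE annotation, so reads over both cannot be told apart.

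HoxA had 3 lower members in dermis. Hoxa7, the highest of them, had 8.33 FPKM in En1cre;Cyp26b1f/- dermis and 20.19 FPKM in Cyp26b1f/+ dermis (relative difference -1.30). Hoxa3 had 3.37 FPKM in En1cre;Cyp26b1f/- dermis and 10.18 FPKM in Cyp26b1f/+ dermis (-1.48), and Hoxa6 had 2.97 FPKM in En1cre;Cyp26b1f/- dermis and 7.38 FPKM in Cyp26b1f/+ dermis (-1.20). The genes around them differed less. Hoxa4 stood at -0.64, Hoxa5 at -0.26, Hoxa9 at -0.10 and Hoxa10 at -0.87. Hoxa2 lay above the median gene with 5.18 FPKM in En1cre;Cyp26b1f/- dermis and 2.32 FPKM in Cyp26b1f/+ dermis (0.78). Exons of Hoxa2 and Hoxa3 also overlap on the same strand in the GENCODE annotation, with the same limit.

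HoxC held both the smallest and the largest differences in dermis. Hoxc4 had 12.67 FPKM in En1cre;Cyp26b1f/- dermis and 12.08 FPKM in Cyp26b1f/+ dermis (-0.06), and Hoxc10 had 7.96 FPKM in En1cre;Cyp26b1f/- dermis and 7.74 FPKM in Cyp26b1f/+ dermis (-0.08). Hoxc5, Hoxc6, Hoxc8 and Hoxc9 lay above the median gene, at 0.61, 0.46, 0.48 and 0.97. Hoxc9 had 8.77 FPKM in En1cre;Cyp26b1f/- dermis and 3.6 FPKM in Cyp26b1f/+ dermis. Hoxc13 had the lowest difference of all Hox genes, with 3.97 FPKM in En1cre;Cyp26b1f/- dermis and 26.26 FPKM in Cyp26b1f/+ dermis (-2.58). In HoxD no gene reached 2-fold: Hoxd3 stood at -0.25, Hoxd4 at 0.21, Hoxd8 at 0.30, Hoxd9 at -0.73 and Hoxd10 at 0.35.

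Cell type markers moved with the dermis groups. Over all genes in dermis, 14.1% were 2-fold higher and 13.9% were 2-fold lower. All 10 keratinocyte markers lay below the median gene, 8 of them 2-fold or more, with the sums given above. Krt14, the basal keratin, had 1114.9 FPKM in En1cre;Cyp26b1f/- dermis and 4276.29 FPKM in Cyp26b1f/+ dermis, and in the epidermis table it had 321.72 FPKM in En1cre;Cyp26b1f/- and 1496.27 FPKM in Cyp26b1f/+. The libraries labelled dermis listed basal keratinocyte genes at high levels, though the tables were normalised separately. Of 7 usable fibroblast markers 3 were 2-fold higher and none lower, with a sum of 2075.25 FPKM in En1cre;Cyp26b1f/- dermis and 1105.11 FPKM in Cyp26b1f/+ dermis. Dpt, a matrix protein gene of dermal fibroblasts, had 413.7 FPKM in En1cre;Cyp26b1f/- dermis and 48.56 FPKM in Cyp26b1f/+ dermis. Skeletal muscle markers were 2-fold higher for 7 of 9, with sums of 5018.37 FPKM in En1cre;Cyp26b1f/- dermis and 1600.49 FPKM in Cyp26b1f/+ dermis, and endothelial markers for 5 of 8, with sums of 403.59 FPKM in En1cre;Cyp26b1f/- dermis and 294.38 FPKM in Cyp26b1f/+ dermis. Of Schwann cell and neuron markers 4 of 8 were 2-fold higher and 2 lower, and of cartilage and bone markers 1 of 8 was lower. The part of these cell types in the Hox differences was not tested, and fewer cells of a type and less RNA per cell cannot be told apart in bulk RNA.

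**Figure D4:**
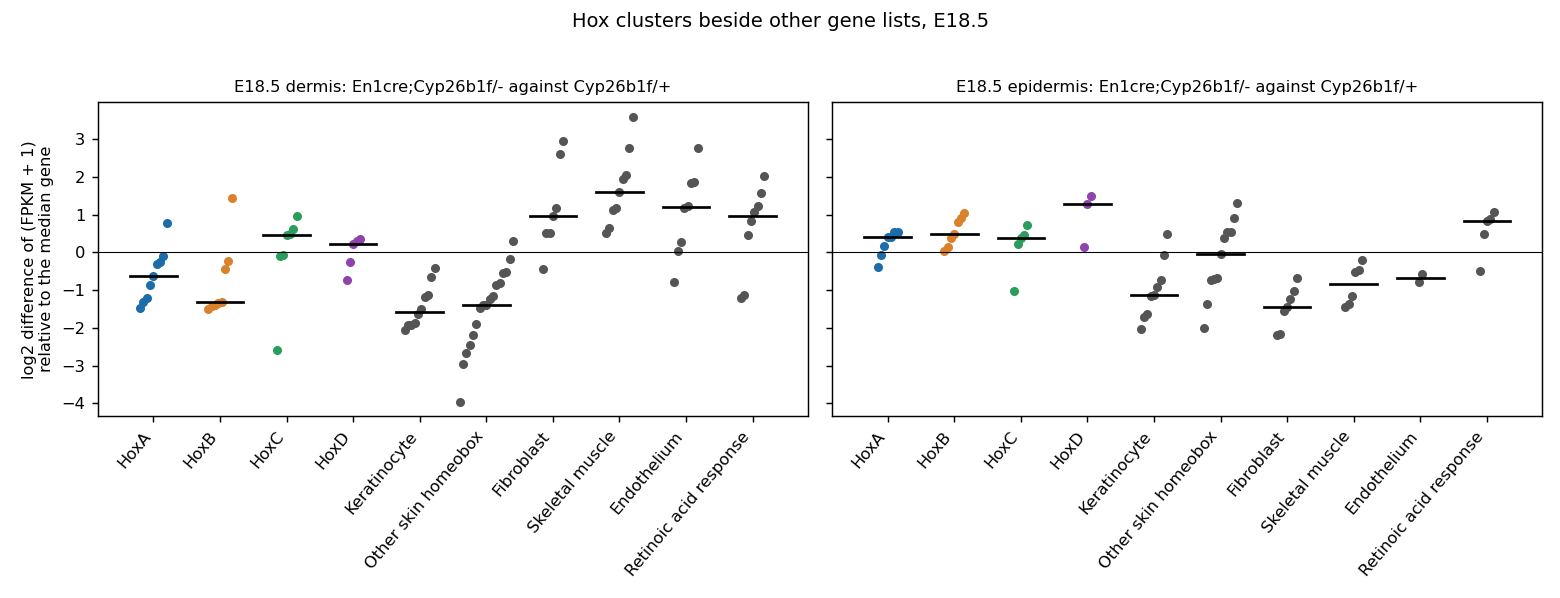
Relative log2 difference (vertical axis) of each gene of at least 1 FPKM in the 4 Hox clusters and in 6 other lists, in E18.5 dermis and E18.5 epidermis. Points are genes, horizontal bars are list medians, and nothing was tested. In dermis the HoxB median (-1.32) lies near those of keratinocyte and other skin homeobox genes, while in epidermis all 4 Hox medians lie above 0.

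In E18.5 epidermis Hox levels were low and most members lay a little above the median gene in the En1cre;Cyp26b1f/- library. Of 22 members of at least 1 FPKM, 19 lay above and 3 below, with a median of 0.41. The added 1 pulls low genes here toward 0.18, the value of a gene at 0 in both libraries. Without centring 15 of the 22 lay above 0. Hoxa6, Hoxb2, Hoxb4 and Hoxd8 lay above the median gene but had lower FPKM in the En1cre;Cyp26b1f/- library. All 15 central genes (paralogues 4 to 8) lay above the median gene, and 12 of them above 0 without centring. Of the 22, 3 (13.6%) were 2-fold higher, where 3.53% of 11452 genes were, and 1 (4.55%) was 2-fold lower, where 4.95% were, a share near that of all genes.

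The higher genes were 2 neighbours of HoxD and 1 HoxB gene. Hoxd4 had 7.13 FPKM in En1cre;Cyp26b1f/- epidermis and 2.28 FPKM in Cyp26b1f/+ epidermis (relative difference 1.49). Hoxd3 had 2.14 FPKM in En1cre;Cyp26b1f/- epidermis and 0.46 FPKM in Cyp26b1f/+ epidermis (1.28). The tables give Hoxd3 and Hoxd4 1 shared locus entry, chr2:74548101-74586328, and their exons overlap on the same strand in the GENCODE annotation, so reads over both cannot be told apart. Hoxb6 (chr11:96160485-96162883) had 9.44 FPKM in En1cre;Cyp26b1f/- epidermis and 4.70 FPKM in Cyp26b1f/+ epidermis (1.05). It lies close to Hoxb5, which had 2.98 FPKM in En1cre;Cyp26b1f/- epidermis and 1.41 FPKM in Cyp26b1f/+ epidermis (0.90). Hoxb3 stood at 0.81, a sum over 2 transcripts that went opposite ways. NM_010458 had 5.6 FPKM in En1cre;Cyp26b1f/- epidermis and was listed at 0 in Cyp26b1f/+ epidermis, and NM_001079869 had 2.74 FPKM in En1cre;Cyp26b1f/- epidermis and 5.03 FPKM in Cyp26b1f/+ epidermis. The most abundant member, Hoxb2, differed little, with 9.64 FPKM in En1cre;Cyp26b1f/- epidermis and 10 FPKM in Cyp26b1f/+ epidermis (0.13).

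The remaining epidermal members spanned a narrow range. In HoxA the difference was furthest above the median gene for Hoxa5 (0.55), with 4.58 FPKM in En1cre;Cyp26b1f/- epidermis and 3.31 FPKM in Cyp26b1f/+ epidermis. Hoxa7, the highest HoxA gene there, had 7.02 FPKM in En1cre;Cyp26b1f/- epidermis and 5.28 FPKM in Cyp26b1f/+ epidermis (0.53). Hoxa2 (-0.08), Hoxa3 (0.40), Hoxa4 (0.42) and Hoxa6 (0.18) lay lower. In HoxB, Hoxb4 (0.03), Hoxb7 (0.38) and Hoxb8 (0.48) completed the set, and in HoxC, Hoxc4 (0.47), Hoxc5 (0.22), Hoxc6 (0.38) and Hoxc8 (0.72). Hoxd8 stood at 0.14. Keratinocyte markers summed to 2561.71 FPKM in En1cre;Cyp26b1f/- epidermis and 6486.21 FPKM in Cyp26b1f/+ epidermis, with 5 of 9 at least 2-fold lower, and fibroblast markers to 37.58 FPKM in En1cre;Cyp26b1f/- epidermis and 193.35 FPKM in Cyp26b1f/+ epidermis, with 6 of 7 at least 2-fold lower. Their part in the Hox values was not tested.

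Hoxc13 had the lowest relative difference of the Hox genes in each of the 3 tables. In epidermis it had 0.35 FPKM in En1cre;Cyp26b1f/- and 2.08 FPKM in Cyp26b1f/+ (-1.01), beside the -2.58 in dermis and the -1.34 in E16.5 skin given on the same scale. Other homeobox genes of skin and its appendages were set beside it. For this list and those below, the shares over all genes were 8.19% called higher and 9.78% lower in E16.5 skin. At the 2-fold threshold, 14.1% were higher and 13.9% lower in dermis, and 3.53% and 4.95% in epidermis. In E16.5 skin 1 of 19 tested was called higher and 4 lower. Lhx2, a hair follicle stem cell regulator, had 4.85 FPKM in Cyp26b1-/- skin and 10.6 FPKM in wild-type skin (-1.42). Dlx3, an epidermal and hair differentiation gene, had 16.46 FPKM in Cyp26b1-/- skin and 24.1 FPKM in wild-type skin (-0.95). The others called lower had higher FPKM in Cyp26b1-/- skin. Prrx1 had 66.57 FPKM there and 58.62 FPKM in wild-type skin (-0.25), and Irx1 had 45.06 and 43.59 FPKM (-0.38). The gene that rose was Dlx5, a craniofacial and bone gene, with 97.36 FPKM in Cyp26b1-/- skin and 21.47 FPKM in wild-type skin (1.70). In dermis 11 of 17 such genes were 2-fold lower and none higher, with a median of -1.38. Msx1 had 2.86 FPKM in En1cre;Cyp26b1f/- dermis and 54.25 FPKM in Cyp26b1f/+ dermis (-3.96), Dlx2 had 1.78 FPKM in En1cre;Cyp26b1f/- dermis and 18.77 FPKM in Cyp26b1f/+ dermis (-2.95), and Dlx3 had 15.6 FPKM in En1cre;Cyp26b1f/- dermis and 95.93 FPKM in Cyp26b1f/+ dermis (-2.67). In epidermis 2 of 11 were 2-fold lower, Lhx2 and Msx1, and Dlx5 was 2-fold higher with 24.87 FPKM in En1cre;Cyp26b1f/- epidermis and 10.81 FPKM in Cyp26b1f/+ epidermis (1.31).

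The order of the Hox differences was compared between the tables, which share no libraries. Spearman's rho of the relative differences was 0.21 over 25 genes between E16.5 skin and dermis, -0.07 over 21 genes between E16.5 skin and epidermis, and 0.06 over 22 genes between dermis and epidermis. The E16.5 table differs from both E18.5 tables in genotype, age and tissue together, which cannot be told apart here. The E18.5 tables share their labelled genotypes and age and differ in tissue. The numbers in their library titles differ too. If these numbers name animals, tissue and animal cannot be told apart. Hoxb2 shows the spread: it rose in E16.5 skin, was lower in dermis and stood near the median gene in epidermis, at 0.51, -1.38 and 0.13. Hoxc8 lay above the median gene in all 3, at 1.03, 0.48 and 0.72.

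Genes that respond to retinoic acid were set beside the Hox genes. In E16.5 skin all 8 tested rose, among them Rarb, a retinoic acid receptor gene, with 32.02 FPKM in Cyp26b1-/- skin and 2.98 FPKM in wild-type skin (2.62), and Stra6, the retinol uptake receptor, with 44.75 FPKM in Cyp26b1-/- skin and 1.47 FPKM in wild-type skin (3.78). Dhrs3, a retinal reductase gene, had 125.95 FPKM in Cyp26b1-/- skin and 44.53 FPKM in wild-type skin (1.05). The differences of Rarb and Stra6 are larger than that of any Hox gene in the table. In dermis 4 of 8 were 2-fold higher and 2 lower. Crabp2, a carrier of retinoic acid, had 33.6 FPKM in En1cre;Cyp26b1f/- dermis and 6.84 FPKM in Cyp26b1f/+ dermis (2.02), and Rarg, the main retinoic acid receptor of epidermis, had 108.25 FPKM in En1cre;Cyp26b1f/- dermis and 229.49 FPKM in Cyp26b1f/+ dermis (-1.20). In epidermis 1 of 5 was 2-fold higher.

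At E16.5 the partners and regulators of Hox genes given here were called in both directions, in shares near those of all genes. Of the TALE homeobox cofactors, which bind DNA together with Hox proteins, 1 of 8 tested was called higher in E16.5 skin and 1 lower, where 8.19% and 9.78% of all genes were. The lower call, Pknox2, rests on a transcript listed at 0 in Cyp26b1-/- skin, and its summed level was 2.88 FPKM in Cyp26b1-/- skin and 2.05 FPKM in wild-type skin (-0.08). Meis1 was the 1 of 8 at least 2-fold higher in dermis, with 12.1 FPKM in En1cre;Cyp26b1f/- dermis and 4.49 FPKM in Cyp26b1f/+ dermis (1.13), and none of 7 reached 2-fold in epidermis. Of 23 Trithorax and Polycomb genes, which keep Hox genes on or off, 2 were called higher and 2 lower in E16.5 skin. The shares of all genes were the 8.19% and 9.78% just given. The lower call of Men1 rests on 1 of its 4 transcripts, and its summed level was 43.56 FPKM in Cyp26b1-/- skin and 31.67 FPKM in wild-type skin, which is not below the median gene (0.02). Phc1 rose, with 27.77 FPKM in Cyp26b1-/- skin and 12.47 FPKM in wild-type skin (0.67). In dermis 2 of 23 were 2-fold higher and 6 lower, among them the Polycomb genes Eed, with 10.65 FPKM in En1cre;Cyp26b1f/- dermis and 23.66 FPKM in Cyp26b1f/+ dermis (-1.20), and Ring1, with 19.36 FPKM in En1cre;Cyp26b1f/- dermis and 40.19 FPKM in Cyp26b1f/+ dermis (-1.14). In epidermis 1 was 2-fold higher and 1 lower.

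The Cdx genes, upstream activators of Hox genes in the early embryo, were at or near 0. Cdx1, Cdx2 and Cdx4 stayed at or below 0.02 FPKM in all columns. Egr2, a hindbrain regulator of Hox genes that also acts in other cells, fell in E16.5 skin, with 1.93 FPKM in Cyp26b1-/- skin and 4.55 FPKM in wild-type skin (-1.35). It was over 2-fold lower in dermis too, with 2.42 FPKM in En1cre;Cyp26b1f/- dermis and 8.42 FPKM in Cyp26b1f/+ dermis (-1.58). In epidermis it stood near the median gene, at 0.26.

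The genes that flank the clusters were compared to see whether neighbours moved with them. In E16.5 skin 1 of 13 tested was called higher and 2 lower, where 8.19% and 9.78% of all genes were. The 2 called lower, Snx10 and Snx11, had higher FPKM in Cyp26b1-/- skin. Snx10 had 4.72 FPKM there and 3.33 FPKM in wild-type skin, and Snx11 had 26.25 and 23.78 FPKM. Skap2, which lies beyond the 3′ end of HoxA, rose, with 44.09 FPKM in Cyp26b1-/- skin and 16.84 FPKM in wild-type skin (0.91). None of 11 flanking genes reached 2-fold in dermis, where their median was -0.50. In epidermis Calcoco1 was 2-fold higher, with 167.02 FPKM in En1cre;Cyp26b1f/- epidermis and 87.13 FPKM in Cyp26b1f/+ epidermis (1.11).

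Markers of body region outside the Hox clusters were looked at because the labels give no site. For the E16.5 counts in this paragraph, 8.19% of all genes were called higher and 9.78% lower. Of 12 limb and trunk dermis genes, 1 rose and 4 fell in E16.5 skin. Lmx1b, a gene of the dorsal limb, was the largest fall, with 2.34 FPKM in Cyp26b1-/- skin and 3.94 FPKM in wild-type skin (-0.99). In dermis it had 2.08 FPKM in En1cre;Cyp26b1f/- dermis and 11.75 FPKM in Cyp26b1f/+ dermis (-2.17), and Zic1, a gene of dorsal tissue, had 14.46 FPKM in En1cre;Cyp26b1f/- dermis and 37.89 FPKM in Cyp26b1f/+ dermis (-1.45). Lmx1b and Zic1 were the 2 of 8 limb and trunk genes 2-fold lower in dermis, where 13.9% of all genes were, and none was 2-fold higher. Of these 8, 4 lay above and 4 below the median gene, with a list median of -0.08. Of 11 craniofacial genes, 2 were called higher and 2 lower in E16.5 skin, and none of 5 in dermis reached 2-fold. Of those called lower, Pax3 had 3.09 FPKM in Cyp26b1-/- skin and 3.03 FPKM in wild-type skin. Otx2, a gene of the forebrain and eye, had 3.44 FPKM in Cyp26b1-/- skin and 0.12 FPKM in wild-type skin (1.56). Beside the lens markers given above, the bone gene Bglap had 110.63 FPKM in Cyp26b1-/- skin and 8.3 FPKM in wild-type skin (3.16). Markers of the other cell types were mixed at E16.5. Of 8 keratinocyte markers 1 rose and 1, Krt14, fell, with 425.79 FPKM in Cyp26b1-/- skin and 734.13 FPKM in wild-type skin (-1.21). Of 7 fibroblast markers 2 were called lower and of 9 muscle markers 1, but the level of each was higher in Cyp26b1-/- skin. Pdgfra had 48.2 FPKM in Cyp26b1-/- skin and 41.49 FPKM in wild-type skin. Twist2 had 143.35 and 134.54 FPKM, and Ttn had 3.71 and 2.72 FPKM. Of 10 Schwann cell and neuron markers 2 were called higher and 1 lower, and of 10 cartilage and bone markers 4 were called higher and 2 lower. The lower calls of Mbp, a myelin gene, and Runx2, a bone regulator, rest on low transcripts, and their summed levels lay above the median gene. Mbp had 18.64 FPKM in Cyp26b1-/- skin and 13.09 FPKM in wild-type skin (0.05), and Runx2 had 8.2 FPKM in Cyp26b1-/- skin and 5.39 FPKM in wild-type skin (0.10). The median of 7 endothelial markers was -0.08. Upk1b, a urothelial gene, had 130.01 FPKM in Cyp26b1-/- skin and 34.57 FPKM in wild-type skin (1.45). The part of lens, bone or a difference in body site in the E16.5 Hox values was not tested.

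The clusters also encode microRNAs, and those of the miR-196 family are known in vertebrates to pair with Hox transcripts, Hoxb8 among them. The mature sequences are shown from RefSeq (GRCm38.p6) with the seed, bases 2 to 8, in capitals. The mature miR-196a is encoded by both Mir196a-1 in HoxB and Mir196a-2 in HoxC, and miR-196b by Mir196b in HoxA.
mmu-miR-196a-5p: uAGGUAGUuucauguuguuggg
mmu-miR-196b-5p: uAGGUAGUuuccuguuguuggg
Both carry the seed AGGUAGU. The tables list their hairpins of 85 to 102 bases, where few fragments give a high FPKM and a mature microRNA is not measured. Hoxb8 had 13.64 FPKM in En1cre;Cyp26b1f/- dermis and 17.29 FPKM in Cyp26b1f/+ dermis. The Mir196a-1 row had 190.3 FPKM in En1cre;Cyp26b1f/- dermis and 92.84 FPKM in Cyp26b1f/+ dermis. In the other tables both were higher in the mutant. Hoxb8 had 5.01 FPKM in En1cre;Cyp26b1f/- epidermis and 3.87 FPKM in Cyp26b1f/+ epidermis, and Mir196a-1 had 147.47 and 34.71 FPKM. Hoxb8 had 1.06 FPKM in Cyp26b1-/- skin and 0.85 FPKM in wild-type skin, and Mir196a-1 had 29.85 and 0 FPKM. A link between them was not tested.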

How the data were processed

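Per the labels' protocols, Trizol was used for RNA and an Illumina TruSeq kit for libraries. The submitters' processing notes name Cuffdiff 1.3.0, Cufflinks, TopHat 1.3.2 and Bowtie 0.12.7.0, with mm9 as the build. How strand was handled, and with which gene model, is not given in the sources used here. Per the file headers, the authors deposited 1 FPKM value per group and RefSeq transcript, a log2 fold without pseudocount, a test statistic (a score of opposite sign), p-values, q-values and a status. The files hold no counts, so read depth is unknown. Nothing says that the E16.5 replicates are separate animals.

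FPKM were summed per symbol. At E16.5 the SE of a transcript's log2 fold was taken as the fold divided by the deposited statistic. The fold was centred on the median of 19286 transcripts and given a two-sided normal p, adjusted by Benjamini-Hochberg over all tested transcripts. Calls were made per gene: 1 or more transcripts passed in a direction, and no other passed in the opposite direction. Transcripts listed at 0 in 1 group kept the authors' call, and 202 with a statistic under 0.05 (0 of them Hox) were not called. The procedure was tested on simulated data. At E18.5 a pseudocount of 1 FPKM, a floor of 1 FPKM in either group and a 2-fold threshold were used. Genes with a row of failed status were left out of the lists, and no Hox row had one.

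Members and gene lists were chosen with earlier results of these data known. Values were given in full for called members and for the 5 highest and 5 lowest in each table, and up to 3 genes with the largest difference, and retinoic acid response genes, were named from each other list. Some genes that this rule covers, 1 Hox gene among them, enter the fits, counts and medians but are not reported here by name or value. Mir196 genes, Hoxb8 and some further list genes were named after their values were seen. The search for hexamer repeats in the clusters was added after the data were seen. Of 39 Hox genes, all were in the GENCODE annotation of the same build. Python 3.11.15, pandas 2.3.3, scipy 1.17.1 and statsmodels 0.14.6 were used. Alternatives changed the centre, the adjusted p, the pseudocount, the filter and the treatment of failed rows.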

Additional observations from a re-analysis of the deposited data

Results flagged for a closer look

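Hoxb6 lay on opposite sides of the median gene in the E18.5 tissues, at a relative difference of -1.42 in dermis and 1.05 in epidermis. Each value rests on 1 library a group, and the difference between the tissues was not tested.

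Rows for microRNA hairpins of the clusters, which enter no comparison of Hox genes, were flagged where the mutant value was at least 1 FPKM and above its control. This rule fixed the direction of the flagged rows in advance. Mir196a-2 was listed at 0 in both libraries of dermis and of epidermis. Mir196b and Mir615 were listed at 0 in both groups of E16.5 skin and of epidermis, and Mir10b in every column. In E16.5 skin, Mir196a-1 had 29.85 FPKM in Cyp26b1-/- skin and was listed at 0 in wild-type skin, and Mir196a-2 had 94.32 FPKM in Cyp26b1-/- skin and was listed at 0 in wild-type skin. Rows at 0 in 1 group were not re-centred, and the authors' deposited table called neither. In dermis, Mir196a-1 had 190.33 FPKM in En1cre;Cyp26b1f/- and 92.84 FPKM in Cyp26b1f/+, Mir196b had 28.19 FPKM in En1cre;Cyp26b1f/- and was listed at 0 in Cyp26b1f/+, and Mir615 had 133.79 FPKM in En1cre;Cyp26b1f/- and 74.58 FPKM in Cyp26b1f/+. In epidermis, Mir196a-1 had 147.47 FPKM in En1cre;Cyp26b1f/- and 34.71 FPKM in Cyp26b1f/+. The tables give Mir615 1 shared locus entry with Hoxc5, and in the GENCODE annotation Mir196b overlaps an exon of Hoxa9, and Mir10a one of Hoxb4, on the same strand. Reads of these 3 hairpins cannot be told apart from reads of the host transcripts. Mir10a went the other way in E16.5 skin, listed at 0 in Cyp26b1-/- skin and at 4.66 FPKM in wild-type skin.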

How the results depend on the processing

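The direction of no called Hox gene reversed under any alternative. At E16.5 the count of Hox genes called higher was 6. It was 13 with the authors' deposited q and no centring (54.6% of all tested genes were then higher and 3.46% lower). It was 3 at an adjusted p of 0.01, namely Hoxc4, Hoxc5 and Hoxc8, where 5.75% of all genes were higher. With the centre taken from transcripts of at least 10 FPKM, Hoxb2 was no longer called and the count called lower became 2, adding Hoxd10. Over all genes, 7.61% were then called higher and 10.6% lower. A centre by level or by GC content (known for 94.9% of tested transcripts) and a floor of 1 FPKM kept the same 7 calls. In dermis the count of 2-fold higher genes was 2, adding Hoxc9, with a pseudocount of 0.1 or 0.5, with no filter and with no centring. The shares of all genes 2-fold higher were then 19.1%, 16.7%, 10.3% and 17.2%. In epidermis this count was 1 with a floor of 5 FPKM, where Hoxd4 alone was left (3.49% of all genes). Hoxb6 was no longer 2-fold higher with that floor, with no filter or with no centring. The last pair had a count of 2 (1.26% and 2.32% of all genes). Hoxb5 joined for a count of 4 with a pseudocount of 0.1 or 0.5 and with a centre by level. The shares of all genes were then 5.05%, 4.2% and 3.38%. Hoxd4 was 2-fold higher under all of these. The count of 2-fold lower genes was 0 with that floor and with a centre by level, where 6.18% and 4.03% of all genes were. Of 77 relative differences of single Hox genes, 18 changed sign without centring, 2 with a centre by level and 0 with a pseudocount of 0.1, none of them a called or 2-fold gene. No paired analysis was possible because each E16.5 column merges both libraries of its genotype and E18.5 has 1 library a group, so leaving out a replicate and a replicate block were not run. Low genes rest on few reads, whose number is unknown.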
